A study of Danio rerio with 6 samples.

Results

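The protein components of the cytosolic ribosome were followed in germ-free (GF) larval guts that lacked IL-26, a cytokine of the gut. Genes were taken by symbol alone: every gene named rpl or rps followed by a digit, together with *rplp0*, *rplp1*, *rplp2*, *rplp2l* and *rpsa*, leaving out the rps6k kinases. This gave 83 of the 15419 genes counted, 48 of the large and 35 of the small ribosomal subunit. Bulk RNA-seq had been performed on guts dissected at 5 days post-fertilization from 3 *il26-/-* GF and 3 WT GF replicates, each a pool of 10 to 15 guts. The mutation had been made by CRISPR/Cas9, the WT was the AB line, and *il26-/-* and WT adults that were clutchmates were kept in separate tanks to produce the larvae. Both groups were made GF with bleach and antibiotics (ampicillin, kanamycin, ceftazidime and chloramphenicol), so no colonized gut enters the comparison.

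Ribosomes are built from ribosomal RNA and a nearly fixed set of proteins, most of them in equal number, as a small subunit that decodes mRNA and a large subunit that joins amino acids. In vertebrates the mRNAs of these proteins begin with a terminal oligopyrimidine (TOP) tract, through which mTOR signalling and the RNA-binding protein Larp1 set how much they are translated and how stable they are, and Myc raises their transcription. Ribosomal protein mRNAs are among the most abundant in growing and renewing tissues such as the intestinal epithelium, where the proliferating and the secretory cells need many ribosomes.

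Total counts were 7528412, 38143258 and 16095605 in *il26-/-* GF replicates 1, 2 and 3, against 21188195, 21652562 and 29399034 in WT GF replicates 1, 2 and 3. No library of the 6 had any count of *il26* itself (0 in each), so this gene gave no check of the genotypes. All 10 of the enterocyte markers looked for were counted, though *fabp2* had at most 19 counts in any library. Their summed shares were 4.16% to 4.30% of the counts in *il26-/-* GF and 4.03% to 4.58% in WT GF. Markers of exocrine pancreas (4.80% to 5.996% against 4.89% to 6.63%) and of hepatocytes (0.933% to 1.40% against 0.514% to 1.47%) showed that the dissected guts carried other tissue. The sources used here do not say whether the pools came from separate clutches, so p-values measure only the spread between these pools. In pooled tissue, fewer cells of a kind and less mRNA per cell cannot be told apart.

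Before any comparison, the 83 genes fell apart by depth. For 12 of them the median over the 6 libraries was at most 83 counts, and for the other 71 it was between 828.5 (*rpl7l1*) and 105697.5 (*rplp0*). The boundary of 100 counts between them was set after the values had been seen. The 12 were 7 large subunit genes (*rpl9*, *rpl12*, *rpl13a*, *rpl30*, *rpl32*, *rpl36a* and *rpl39*) and 5 small subunit genes (*rps3a*, *rps8b*, *rps13*, *rps15* and *rps27a*), and together they held 0.0091% of the counts of the 83 genes.

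Most of these 12 encode core proteins that every ribosome carries. *rpl39*, at the exit tunnel of the large subunit, had 0, 0 and 1 counts in *il26-/-* GF, against 0, 0 and 2 in WT GF. *rps13*, a core protein of the small subunit, had 0, 1 and 0 counts in *il26-/-* GF, against 2, 0 and 2 in WT GF. *rps27a*, which is translated as a fusion to ubiquitin, had 1, 3 and 0 counts in *il26-/-* GF, against 3, 0 and 2 in WT GF. All of these are at the level of 3 counts or fewer in either genotype, where no difference was detectable.

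*rpl32* had 0, 3 and 1 counts in *il26-/-* GF, against 1, 0 and 1 in WT GF. *rpl9* had 1, 3 and 3 counts in *il26-/-* GF, against 0, 2 and 2 in WT GF. *rps3a* had 0, 4 and 0 counts in *il26-/-* GF, against 2, 2 and 2 in WT GF. Again no gene of the 3 exceeded a handful of reads anywhere. *rpl36a* had 0, 2 and 0 counts in *il26-/-* GF, against 2, 4 and 3 in WT GF. *rps15* had 2, 16 and 5 counts in *il26-/-* GF, against 11, 8 and 5 in WT GF. These 8 genes did not pass edgeR's filter on low counts (filterByExpr) and were not tested.

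What the 12 genes share was looked for in a RefSeq gene table, in which all 83 genes had an entry, and in a separate list of gene names with Ensembl identifiers. Of the 12, 10 had exactly 1 Ensembl identifier and 0 had more than 1, and of the other 71, 62 had exactly 1 and 2 had more than 1. In RefSeq a gene model overlapped that of another gene, on either strand, for 6 of the 12 and 25 of the 71. The counting tool is not given in the sources used here, and the part that annotation or reads shared between copies played was not tested.

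**Figure D1:**
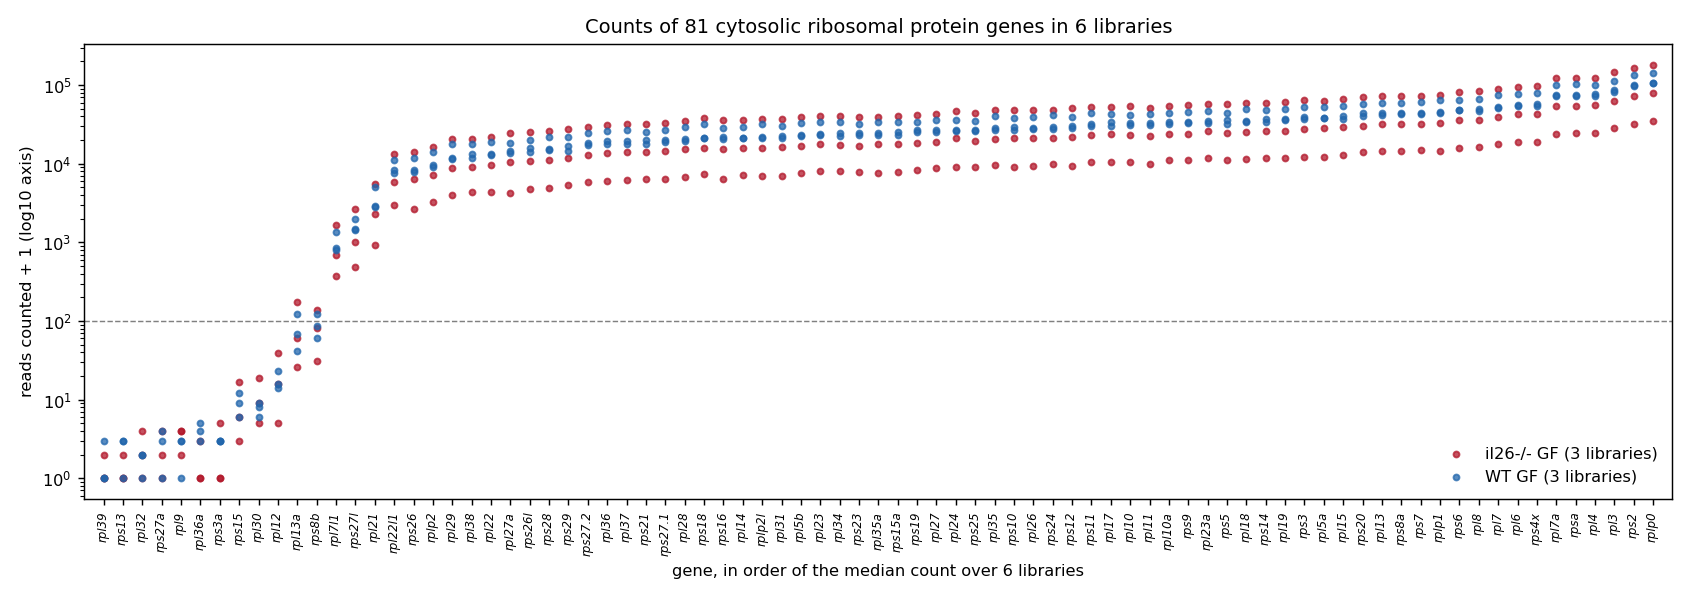
Reads counted, plus 1, on a log10 axis for 81 of the 83 ribosomal protein genes, in order of the median count. Red points are the 3 *il26-/-* GF libraries, blue points the 3 WT GF libraries and the dashed line is the boundary of 100 counts, below which 12 genes have their median; counts are not scaled for library size, so the shallow and the deep *il26-/-* GF libraries bracket most genes.

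The 83 genes together took a large part of each library, on average slightly smaller in *il26-/-* GF. Their share was 9.94%, 10.0% and 10.4% in *il26-/-* GF replicates 1, 2 and 3, against 10.9%, 10.2% and 10.6% in WT GF. Means were 10.1% ± 0.239 in *il26-/-* GF and 10.6% ± 0.368 in WT GF (SD, n = 3 each), a difference of -0.451 percentage points. The groups overlapped, because *il26-/-* GF replicate 3 had a larger share than WT GF replicate 2.

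Both subunits had this pattern. The large subunit genes held 5.86%, 5.89% and 6.13% of the counts in *il26-/-* GF, against 6.39%, 5.97% and 6.24% in WT GF (5.96% ± 0.147 and 6.20% ± 0.215, SD, n = 3 each). The small subunit genes held 4.09%, 4.11% and 4.26% in *il26-/-* GF, against 4.51%, 4.20% and 4.36% in WT GF (4.15% ± 0.0924 and 4.36% ± 0.155). In each subunit the third mutant pool lay above the second WT pool.

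**Figure D2:**
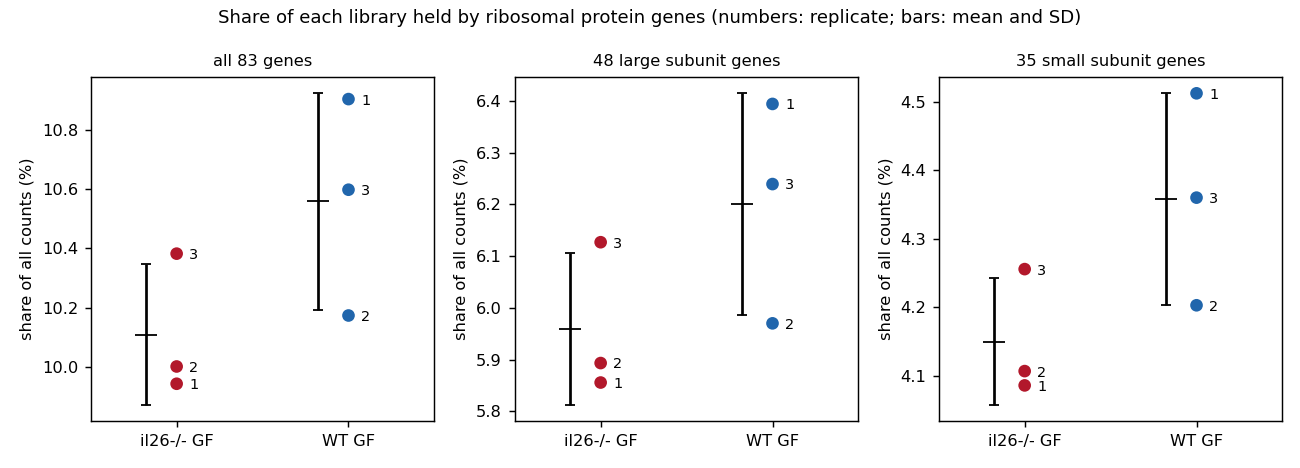
Share of all counts, in percent, held by all 83 genes, the 48 large subunit genes and the 35 small subunit genes. Each point is a library with its replicate number, *il26-/-* GF in red on the left and WT GF in blue on the right, and black bars give the mean and SD of 3 libraries; the axes do not start at 0. In all 3 panels *il26-/-* GF replicate 3 lies above WT GF replicate 2.

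To compare the genotypes gene by gene, all 11062 genes with enough counts were fitted with edgeR's quasi-likelihood test, which included 75 of the 83 ribosomal protein genes, 44 of the large and 31 of the small subunit. None of the 75 passed: 0 had a Benjamini-Hochberg adjusted p-value under 0.05 in edgeR, where 0.00904% of all genes tested did, which is 1 gene. Before adjustment, 1 of the 75 had p under 0.05 and was lower in *il26-/-* GF and 0 were higher, where 2.27% of all genes were lower and 3.06% higher. DESeq2 likewise gave 0 at the adjusted threshold and 1 lower at the unadjusted threshold, where 1.49% of all genes were lower. In edgeR these shares of the ribosomal protein genes were no larger than the background. limma-voom with library quality weights, which gave the least weight to the third library of each genotype, also had 0 at the adjusted threshold but 25 of the 75 lower before adjustment (33.3%), where 3.61% of all genes were lower.

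The fold changes lay on one side of 0 and close together. The median log2 fold change of the 75 genes was -0.15, against -0.0011 over all genes tested, and 70 of the 75 were negative, where 50.4% of all genes were. Large and small subunit genes had the same median to 2 decimals, -0.15 each. Among the 71 genes with at least 100 counts, *rpl7l1* had the highest log2 fold change, 0.06, and the standard errors lay between 0.084 and 0.12. The 95% confidence interval included 0 for 70 of the 71 and stayed within 0.5 log2 units of 0 on both sides for 70 of the 71. These genes share the same 6 libraries and varied together, so that 70 negative values are not 70 separate observations.

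**Figure D3:**
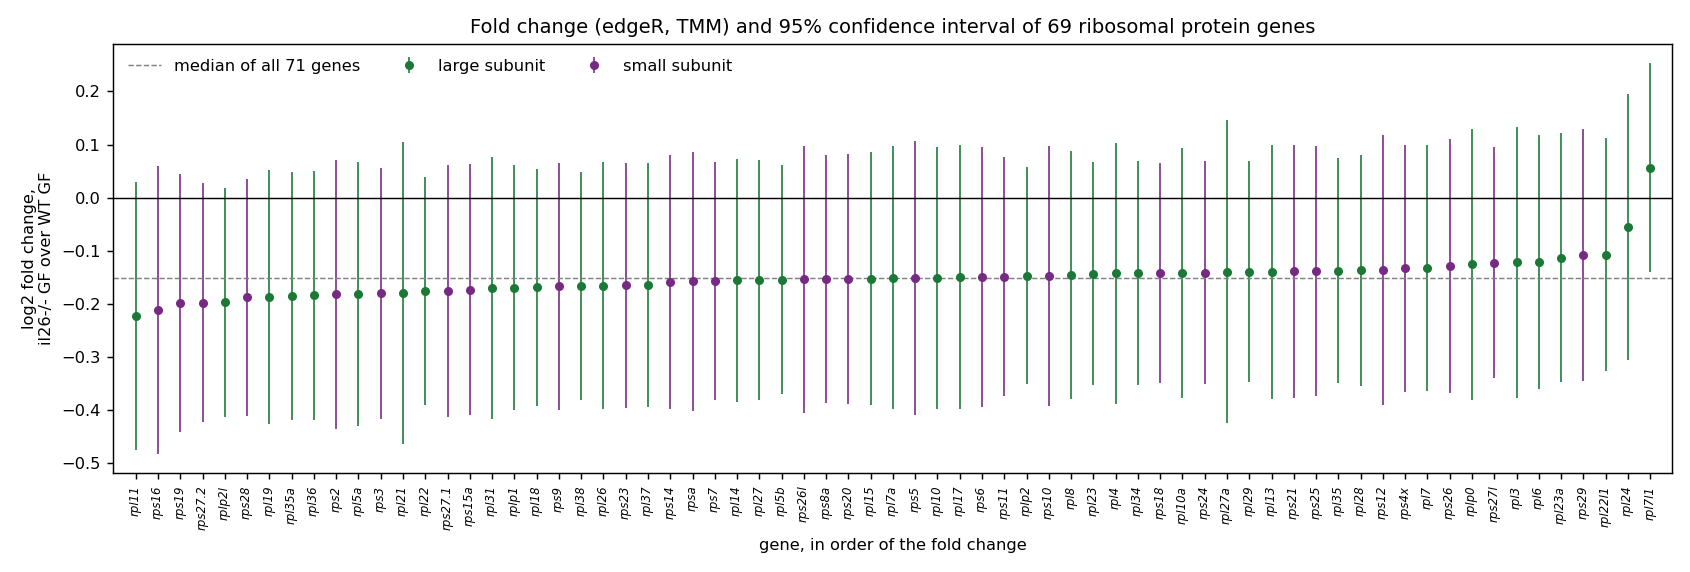
Log2 fold change of *il26-/-* GF over WT GF with its 95% confidence interval (edgeR, TMM scaling) for 69 of the 71 ribosomal protein genes with at least 100 counts, in order of the fold change. Green marks large subunit and purple small subunit genes, the solid line is 0 and the dashed line the median of -0.15 of all 71; every interval shown includes 0.

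The levels in single libraries were not ordered by genotype throughout. After centring each gene on its own mean, the median log2 CPM (counts scaled to one common library total, with TMM correction) of the 71 genes was -0.16, -0.088 and 0.019 in *il26-/-* GF replicates 1, 2 and 3, against 0.14, 0.10 and -0.024 in WT GF replicates 1, 2 and 3. On this scale the third pool of each genotype lay near 0, with the mutant pool above the WT pool. The other pools lay apart. TMM factors were 1.08, 1.03 and 0.989 in *il26-/-* GF replicates 1, 2 and 3, against 0.957, 0.912 and 1.04 in WT GF. The order of the libraries depended on the scaling. By share of all counts, WT GF replicate 3 (10.6%) lay above *il26-/-* GF replicate 3 (10.4%), and WT GF replicate 2 (10.2%) was the lowest WT library. *il26-/-* GF replicate 1 was below all 3 WT GF libraries for 69 of the 71 genes, replicate 2 for 62 and replicate 3 for 17. *il26-/-* GF replicate 1 was the lowest library for 66 genes, and the highest was WT GF replicate 1 or 2 for 68. The share of all genes with these orders is not given here, so these counts have no background beside them.

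The groups did not overlap, with *il26-/-* GF lower, for 16 of the 75 genes (21.3%), where 4.83% of all genes tested had this, and with *il26-/-* GF higher for 1 (*rpl30*), where 4.81% had this. Overlap was read from CPM with TMM scaling only. Among the 71 genes with at least 100 counts the groups overlapped for 55 on this scale. In 52 of these *il26-/-* GF replicate 3 was above WT GF replicate 3. Since the 71 genes varied together, these 16 are not separate observations. Without WT GF replicate 3 the number of members lower at an unadjusted p-value under 0.05 in edgeR was 6 (8% of the members, against 4.34% of all genes in that fit). Without *il26-/-* GF replicate 3 it was 2 (2.67%, against 2.16%). Leaving out any of the other 4 libraries gave 0, against 1.64% to 2.15% of all genes in those fits.

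The 8 genes with the most counts illustrate the common pattern. They held 2.74% to 2.88% of the counts in *il26-/-* GF and 2.82% to 2.996% in WT GF. Gene lengths were not used here, so CPM compares a gene between libraries and not genes with each other. *rplp0*, the base of the stalk that receives translation factors, had 4327, 4646 and 4948 CPM in *il26-/-* GF, against 5251, 5316 and 4615 CPM in WT GF. The third WT pool fell below the upper 2 mutant pools, and the log2 fold change was -0.13 (SE 0.11, edgeR unadjusted p = 0.287).

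*rpl3*, which reaches into the peptidyl transferase centre, had 3491, 3694 and 3994 CPM in *il26-/-* GF, against 4320, 4154 and 3687 CPM in WT GF. *rpl4*, which lines the exit tunnel, had 3052, 3177 and 3483 CPM in *il26-/-* GF, against 3768, 3652 and 3299 CPM in WT GF. *rpl7a* had 2970, 3187 and 3411 CPM in *il26-/-* GF, against 3711, 3652 and 3258 CPM in WT GF. With TMM scaling the third pools were again in inverse order in these 3 large subunit genes. The log2 fold changes were -0.12, -0.14 and -0.15 (SE 0.11 each). *rpl6* had a log2 fold change of -0.12 (SE 0.10), with 2327 to 2687 CPM in *il26-/-* GF and 2526 to 2791 CPM in WT GF.

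The small subunit genes with the most counts did not stand apart from these. *rps2*, at the mRNA entry of the small subunit, had 3886, 4164 and 4528 CPM in *il26-/-* GF, against 4926, 4949 and 4392 CPM in WT GF, giving a log2 fold change of -0.18 (SE 0.11). *rpsa*, known also as the laminin receptor, had 3005, 3168 and 3459 CPM in *il26-/-* GF, against 3708, 3703 and 3329 CPM in WT GF, giving a log2 fold change of -0.16 (SE 0.10). *rps4x* had 2320, 2474 and 2670 CPM in *il26-/-* GF, against 2850, 2728 and 2606 CPM in WT GF, giving a log2 fold change of -0.13 (SE 0.10). With TMM scaling all 3 overlapped between the groups by the third pools alone, and this order of the pools depends on the scaling. *rps6*, the target of S6 kinase, had 1932, 2066 and 2245 CPM in *il26-/-* GF, against 2371, 2417 and 2134 CPM in WT GF, giving a log2 fold change of -0.15 (SE 0.10).

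The acidic stalk proteins Rplp1 and Rplp2 sit as dimers on Rplp0 and recruit the GTPase factors of translation. *rplp1* had 1799, 1935 and 2092 CPM in *il26-/-* GF, against 2244, 2215 and 2092 CPM in WT GF, and the groups met without overlapping. *rplp2* had 404, 417 and 448 CPM in *il26-/-* GF, against 482, 461 and 462 CPM in WT GF. Its paralog *rplp2l* had 864, 936 and 983 CPM in *il26-/-* GF, against 1058, 1094 and 1036 CPM in WT GF. All 3 lay below WT GF in every mutant library, with log2 fold changes of -0.17 (SE 0.10), -0.15 (SE 0.09) and -0.20 (SE 0.09), and none passed the test (edgeR unadjusted p = 0.127, 0.134 and 0.0682).

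Rpl5 and Rpl11 enter the large subunit with its small ribosomal RNA and, when not built into ribosomes, bind and inhibit the ubiquitin ligase Mdm2, as shown in mammalian cells. *rpl11* had 1224, 1322 and 1425 CPM in *il26-/-* GF, against 1550, 1671 and 1412 CPM in WT GF, giving a log2 fold change of -0.22 (SE 0.11, edgeR unadjusted p = 0.0749). *rpl5a* had 1487, 1624 and 1789 CPM in *il26-/-* GF, against 1895, 1927 and 1734 CPM in WT GF, giving a log2 fold change of -0.18 (SE 0.11). *rpl5b* had 951, 992 and 1063 CPM in *il26-/-* GF, against 1114, 1163 and 1068 CPM in WT GF, giving a log2 fold change of -0.15 (SE 0.09). Only *rpl5b* of the 3 was below WT GF in every mutant library, by a margin smaller than the spread within either group. *mdm2* itself had 15.9, 22.5 and 23.7 CPM in *il26-/-* GF, against 25.6, 32.1 and 24.1 CPM in WT GF, giving a log2 fold change of -0.38 (SE 0.17, edgeR unadjusted p = 0.0611).

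Among small subunit genes, *rps27.2* and *rps28* had small p-values in the lower direction, and neither passed the test. *rps27.2* had 721, 739 and 805 CPM in *il26-/-* GF, against 917, 871 and 810 CPM in WT GF, giving a log2 fold change of -0.20 (SE 0.10, edgeR unadjusted p = 0.0768). *rps28*, at the mRNA exit, had 602, 671 and 696 CPM in *il26-/-* GF, against 764, 761 and 718 CPM in WT GF, giving a log2 fold change of -0.19 (SE 0.10, edgeR unadjusted p = 0.0871). Both were below WT GF in every library, by little at the third pools. *rps16*, with 783, 907 and 957 CPM in *il26-/-* GF against 1093, 1049 and 923 CPM in WT GF, had a log2 fold change of -0.21 (SE 0.12) and overlapped. *rps19*, the gene most often mutated in Diamond-Blackfan anaemia, had a log2 fold change of -0.20 (SE 0.10), with 1023 to 1142 CPM in *il26-/-* GF and 1114 to 1314 CPM in WT GF.

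On the higher side, none of the 5 genes with a positive fold change passed the test, and 4 of them were among the 12 with few counts. *rpl30* had 4, 18 and 8 counts in *il26-/-* GF, against 7, 5 and 8 in WT GF, which after scaling gave 0.492, 0.459 and 0.503 CPM against 0.345, 0.253 and 0.261 CPM and a log2 fold change of 0.74 (SE 0.35, edgeR unadjusted p = 0.0713). The groups did not overlap, on at most 18 reads a library. *rpl13a* had 25, 174 and 59 counts in *il26-/-* GF, against 40, 67 and 123 in WT GF, giving a log2 fold change of 0.28 (SE 0.28). *rpl12*, of the stalk base, had 4, 38 and 15 counts in *il26-/-* GF, against 13, 15 and 22 in WT GF, giving a log2 fold change of 0.28 (SE 0.31). Both overlapped, as did *rps8b*, with 30, 136 and 81 counts in *il26-/-* GF, against 60, 85 and 123 in WT GF, and a log2 fold change of 0.11 (SE 0.22).

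The fifth was *rpl7l1*, whose product takes part in large subunit assembly in human cells and is not a standard component of the ribosome. It had 46.0, 43.1 and 43.4 CPM in *il26-/-* GF, against 40.0, 42.8 and 44.4 CPM in WT GF, giving a log2 fold change of 0.06 (SE 0.08). Its paralog *rpl7* had 2165, 2296 and 2487 CPM in *il26-/-* GF, against 2623, 2578 and 2413 CPM in WT GF, giving a log2 fold change of -0.13 (SE 0.10). *rpl24*, which forms a bridge between the subunits, had the value nearest 0 among the other genes with at least 100 counts, with 1122, 1209 and 1327 CPM in *il26-/-* GF against 1332, 1308 and 1160 CPM in WT GF and a log2 fold change of -0.05 (SE 0.11).

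The members varied little between libraries, and nearly all of that variation was shared. The SD of log2 CPM over the 6 libraries had a median of 0.12 for the 75 genes tested, against 0.19 for all genes tested and 0.14 for the 1192 genes with a mean of at least 100 CPM. After the median of the 71 genes was taken away in each library, the SD that remained had a median of 0.037. The correlation of a gene with the median of the other 70 was above 0.9 for 60 of the 71 over the 6 libraries, with a median of 0.95. These correlations share libraries and scaling and are given as a description. *rps10* followed the others most closely, with a remaining SD of 0.013 on the log2 scale.

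For all 71 genes the remaining SD was larger than counting alone gives, and a few genes left the common pattern furthest. *rpl7l1* had the largest remaining SD (0.18, where counting alone gives 0.052) and a correlation of -0.84 with the rest. Its own SD of log2 CPM over the 6 libraries was only 0.066. Most of what remained was therefore the common level, taken away from a gene that was nearly flat. *rpl21*, a large subunit protein, had 114, 140 and 145 CPM in *il26-/-* GF, against 145, 141 and 165 CPM in WT GF, and stood 0.25 log2 units above the common level in WT GF replicate 3 (remaining SD 0.14, counting 0.030). *rpl22l1*, an RNA-binding paralog of *rpl22*, had 372, 342 and 366 CPM in *il26-/-* GF, against 411, 392 and 359 CPM in WT GF, and stood 0.18 above the common level in *il26-/-* GF replicate 1. *rpl11* stood 0.14 above it in WT GF replicate 2. The departures of *rpl21*, *rpl22l1* and *rpl11* were mainly those of single libraries.

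**Figure D4:**
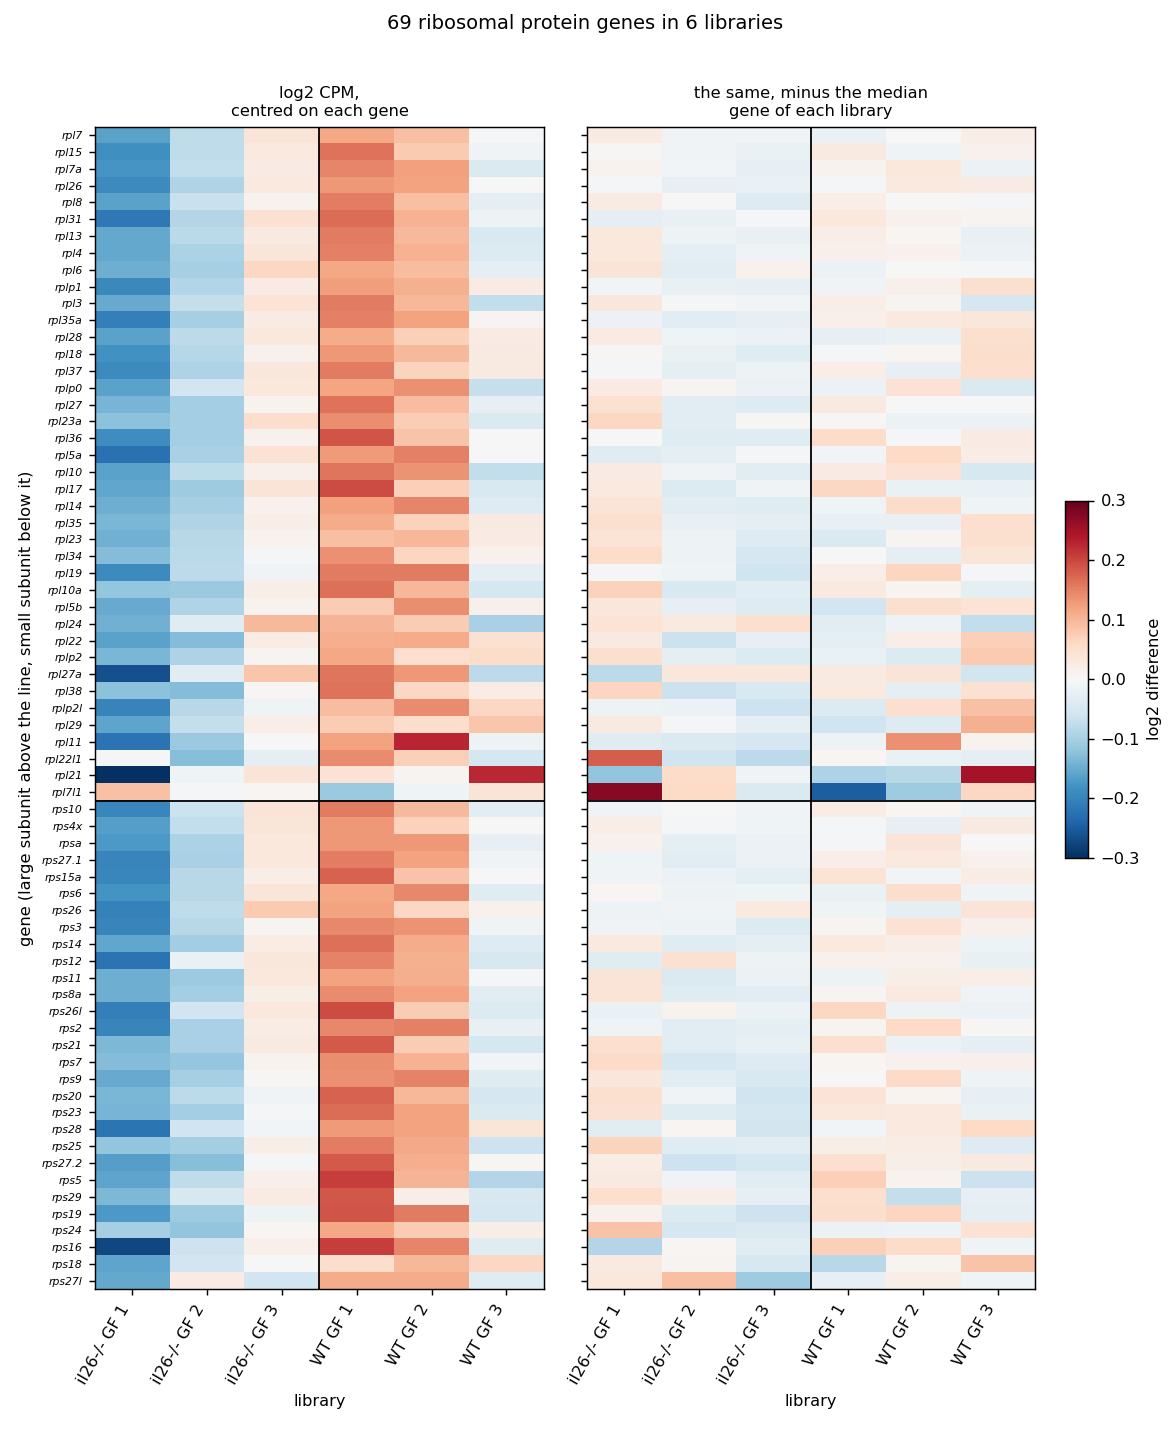
Left, log2 CPM of 69 of the 71 ribosomal protein genes centred on each gene's mean over the 6 libraries, and right, the same after the median gene of each library was taken away. Rows are genes, large subunit above the line and small subunit below it, columns are the 3 *il26-/-* GF and 3 WT GF libraries, and the colour gives the log2 difference between -0.3 and 0.3. The left panel changes by library across nearly all rows. In the right panel less is left, and among the genes shown most in *rpl7l1*, *rpl21*, *rpl22l1* and *rpl11*. *rps27l* is close to *rpl11* (remaining SD 0.066 and 0.071).

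To ask whether single members differed beyond the common shift, the fit was repeated with the summed counts of the 83 genes as the library size, a setting chosen after the values had been seen. This library size centres the members near 0 by construction, so only their spread around 0 can be read. Relative to the members, 69 of the 75 log2 fold changes lay within 0.1 of 0, and 0 were called at an adjusted p-value under 0.05 by edgeR. The share of all genes called in this fit is not given here, so these counts have no background beside them. On this scale *rpl30* had a log2 fold change of 0.88 (edgeR unadjusted p = 0.0479) on the few reads given above, as the only member with p under 0.05 before adjustment, and it lost this in every fit that left out a library. The median of all genes on this scale was 0.15.

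The balance of the subunits was also read from the counts. The ratio of small to large subunit counts was 0.698, 0.697 and 0.695 in *il26-/-* GF, against 0.706, 0.704 and 0.699 in WT GF (0.696 ± 0.0017 and 0.703 ± 0.0036, SD, n = 3 each). The groups did not overlap, but the gap between *il26-/-* GF replicate 1 and WT GF replicate 3 was smaller than the counting error of the first (SE 0.0016). The ratio was given no test.

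Zebrafish keep several ribosomal proteins as pairs of paralogs, and the share of each copy within its pair was compared. *rpl5b* took 39.0%, 37.9% and 37.3% of the *rpl5a* and *rpl5b* counts in *il26-/-* GF, against 37.0%, 37.6% and 38.1% in WT GF. *rplp2l* took 68.1%, 69.2% and 68.7% of its pair in *il26-/-* GF, against 68.7%, 70.4% and 69.2% in WT GF. *rpl22l1* took 40.7%, 38.2% and 37.3% of its pair in *il26-/-* GF, against 38.7%, 37.5% and 36.5% in WT GF. In these 3 pairs, as in all others, the groups overlapped.

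In the small subunit, *rps26l* took 63.9%, 64.3% and 63.2% of its pair with *rps26* in *il26-/-* GF, against 65.1%, 64.2% and 63.1% in WT GF. *rps27.2* took 48.1%, 46.9% and 46.9% of its pair with *rps27.1* in *il26-/-* GF, against 47.99%, 47.3% and 47.7% in WT GF. *rps27l* took 7.18%, 7.55% and 6.60% of its sum with *rps27.1* in *il26-/-* GF, against 6.79%, 6.94% and 6.86% in WT GF. In these comparisons the share of each copy was similar in all 6 pools. The extreme pairs varied more for their size. They were *rps8b*, at 0.188% to 0.253% of its pair with *rps8a* in *il26-/-* GF and 0.135% to 0.207% in WT GF, and *rpl7l1*, at 1.72% to 2.08% of its sum with *rpl7* in *il26-/-* GF and 1.503% to 1.81% in WT GF. Paralogs may share reads, since the counting is not stated.

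Other genes of the translation machinery were read beside the members, with the lists chosen by function. Ribosomal proteins of other symbols had similar values. *faua*, which encodes Rps30 fused to a ubiquitin-like protein, had 659, 705 and 766 CPM in *il26-/-* GF, against 828, 793 and 723 CPM in WT GF, giving a log2 fold change of -0.14 (SE 0.10). The small subunit scaffold *rack1* had 2917, 3089 and 3403 CPM in *il26-/-* GF, against 3697, 3525 and 3166 CPM in WT GF, giving a log2 fold change of -0.14 (SE 0.11). The 10 elongation factors tested, many of which carry the TOP tract in mammals, had a median of -0.14 and were at 3.65% to 3.85% of all counts in *il26-/-* GF and 3.75% to 3.97% in WT GF. *eef1a1l1*, which delivers aminoacyl-tRNA, had 17779, 18941 and 20251 CPM in *il26-/-* GF, against 21954, 21576 and 19386 CPM in WT GF, giving a log2 fold change of -0.14 (SE 0.12). Before adjustment, 1 of the 10 was higher with p under 0.05 and 0 were lower, where 3.06% of all genes tested were higher and 2.27% lower. This was *eef1a1l2*, a paralog of *eef1a1l1*, with 16.97, 26.9 and 17.8 CPM in *il26-/-* GF, against 14.1, 16.8 and 11.97 CPM in WT GF, giving a log2 fold change of 0.55 (SE 0.21, edgeR adjusted p = 0.869).

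The 7 other TOP mRNAs and nascent chain factors had a median log2 fold change of -0.10 with 0 past the unadjusted threshold in edgeR in either direction. Their median level per library was -0.12, -0.086 and 0.020 in *il26-/-* GF, against 0.074, 0.11 and 0.039 in WT GF, and did not overlap. The groups did not overlap, with *il26-/-* GF lower, for 2 of the 7 (28.6%), where 4.83% of all genes tested had this. These were *tpt1* and *naca*, and the *naca* groups met at 1324 CPM. *tpt1*, a classic TOP mRNA, had 3536, 3732 and 3995 CPM in *il26-/-* GF, against 4189, 4407 and 4090 CPM in WT GF, giving a log2 fold change of -0.17 (SE 0.10), without overlap. The 35 initiation factors lay nearer to 0, with a median of -0.06, and at an unadjusted p-value under 0.05, 1 was higher (*pabpc4*, 0.31, SE 0.12) and 1 lower (*eif3hb*, -0.45, SE 0.19), neither with an adjusted p-value under 0.05. At this unadjusted threshold 3.06% of all genes tested were higher and 2.27% lower. Of the 35, 27 had a negative and 8 a positive log2 fold change. Without overlap, *il26-/-* GF was lower for 4 of them (11.4%), where 4.83% of all genes tested had this. These were *eif3ea* (-0.13), *eif3hb*, *eif3i* (-0.20) and *eif6* (-0.16). *il26-/-* GF was higher without overlap for 1 (*pabpc4*), where 4.81% of all genes tested had this. The 64 mitochondrial ribosomal protein genes tested, which encode a separate ribosome, had a median of -0.08, with 1 lower at the unadjusted threshold (*mrpl34*, -0.25, SE 0.10), where 2.27% of all genes tested were, and 0 higher. Their median level per library was -0.0058, -0.0099 and -0.10 in *il26-/-* GF, against 0.049, 0.054 and -0.032 in WT GF, so that *il26-/-* GF replicate 3 was their lowest library and not replicate 1.

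**Figure D5:**
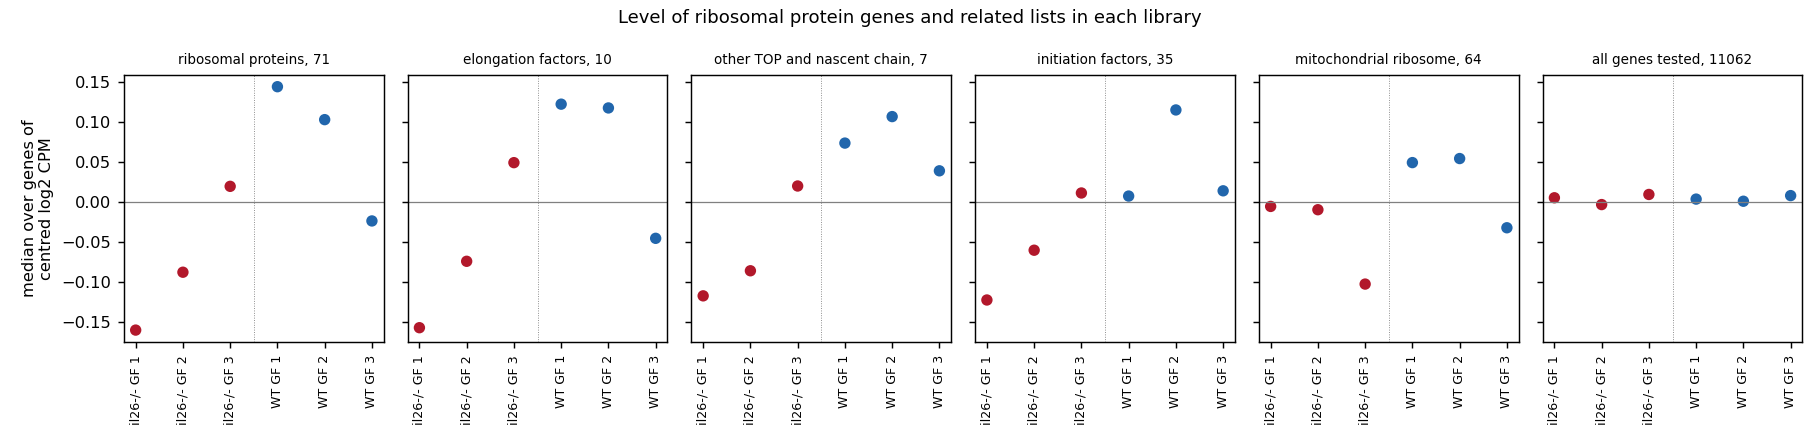
Log2 CPM relative to the mean of each gene, as the median over genes, for the 71 ribosomal protein genes, related lists and all genes tested, with the number of genes in each title. Points are libraries, *il26-/-* GF in red on the left and WT GF in blue on the right of each panel. The first 2 panels have the same order of libraries at both ends, lowest in *il26-/-* GF replicate 1 and highest in WT GF replicate 1, and the last panel stays near 0 in all 6.

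The 11 regulators of ribosomal protein synthesis that were tested had a median log2 fold change of -0.22, with 0 past the unadjusted threshold of 0.05 in edgeR in either direction. *mtor* had 68.1, 64.8 and 68.1 CPM in *il26-/-* GF, against 71.01, 64.5 and 69.9 CPM in WT GF, giving a log2 fold change of -0.03 (SE 0.08). *mych*, a Myc gene of fish, had 72.4, 198 and 73.6 CPM in *il26-/-* GF, against 235, 187 and 60.9 CPM in WT GF, giving a log2 fold change of -0.48 (SE 0.55). *mycb* had 22.8, 51.3 and 22.4 CPM in *il26-/-* GF, against 49.4, 46.1 and 18.8 CPM in WT GF, giving a log2 fold change of -0.22 (SE 0.44). These Myc genes were low in *il26-/-* GF replicates 1 and 3 and in WT GF replicate 3, as was *myca*, with 28.7, 40.2 and 25.6 CPM in *il26-/-* GF, against 48.2, 47.0 and 28.2 CPM in WT GF, and a log2 fold change of -0.37 (SE 0.24). The part that Myc genes played in the level of the ribosomal protein genes was not tested.

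The summed shares of markers of other cell types overlapped between the genotypes, and 0 of the markers tested had an adjusted p-value under 0.05 in edgeR. The median over genes of centred log2 CPM did not overlap for muscle markers (higher in *il26-/-* GF) and neuron markers (lower). Summed skin markers took 0.152% to 0.163% in *il26-/-* GF and 0.113% to 0.207% in WT GF. At an unadjusted p-value under 0.05 in edgeR, 2 of the 7 skin markers tested were lower. Of the 7 erythrocyte markers 1 was higher and 1 lower, and of the 10 enterocyte markers 1 was lower. Pancreas and hepatocyte markers had 0. Of all genes tested 3.06% were higher and 2.27% lower. Summed skeletal muscle markers took 0.193%, 0.301% and 0.192% of the counts in *il26-/-* GF, against 0.114%, 0.0997% and 0.235% in WT GF, with 1 of the 17 (*tnnc2*) at 0 in every library. Of the 13 tested, 7 had p under 0.05 before adjustment in edgeR with *il26-/-* GF higher, where 3.06% of all genes tested did so. A negative log2 fold change was found for 3 of the 13 (*mylpfb* -0.97, *tnni2a.4* -0.79 and *pvalb1* -0.63). Summed neuron markers took 0.0088% to 0.0105% in *il26-/-* GF and 0.0094% to 0.0103% in WT GF, all 8 of them counted in every library, and of the 8, 7 had a negative log2 fold change and 2 had p under 0.05 before adjustment with *il26-/-* GF lower, where 2.27% of all genes tested did so. Hepatocyte markers were at 0.933%, 1.13% and 1.40% in *il26-/-* GF, where the share of the ribosomal protein genes was lowest in replicate 1, against 0.514%, 1.47% and 1.05% in WT GF, where it was highest in replicate 1. The part that these cell types, or the depth of *il26-/-* GF replicate 1, played in the level of the ribosomal protein genes was not tested. With the pancreas, hepatocyte and muscle markers left out of the totals, the share of the 83 genes was 10.6%, 10.8% and 11.2% in *il26-/-* GF, against 11.5%, 11.1% and 11.4% in WT GF, and the groups still overlapped by replicate 3 against replicate 2.

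In the RefSeq table, *rps16* lies on chromosome 4, as does *il26*. The 95% confidence interval of its log2 fold change was -0.48 to 0.06, which holds the member median of -0.15. This interval includes the variation that *rps16* shares with the other members, so it does not compare the gene with them. Relative to the members, the log2 fold change of *rps16* was -0.06 (SE 0.07, edgeR unadjusted p = 0.449). The part that the shared chromosome played was not tested.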

How the data were processed

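Stranded mRNA libraries (poly-A selected, 100-bp paired-end reads) were checked by the authors with FastQC v0.11.8 and aligned to danRer11, and the authors deposited raw counts, listed by gene symbol and not normalized. The aligner's name, counting tool and strand setting are not given in the sources used here. No column was left without a sample. Genes were kept by filterByExpr (11062 of 15419, of which 1837 had 0 counts everywhere), scaled by TMM and tested by edgeR's quasi-likelihood test on genotype alone, and p-values were adjusted over every gene tested by the Benjamini-Hochberg method. Log2 CPM used a prior count of 2. Versions were R 4.3.3, edgeR 4.0.16 and limma 3.58.1. DESeq2 1.42.0, limma-voom, other scalings and filters, thinning, the replicate number as a block and each library left out were alternatives. The code was tested on simulated data. Members and lists were chosen with earlier results of these data known.

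Genes named were the 8 with the highest mean CPM, the 5 smallest p-values in each direction, the 3 largest and 3 smallest fold changes, the 5 that deviated most from the member median, every paralog family, the stalk and Rpl5 and Rpl11 genes, *rpsa*, and those untested or with the fewest counts. *rps6*, *rps10*, *rps19*, *rpl24* and single genes of other lists were named after their values were seen. No library was a duplicate of another of the same genotype (chi-square of at least 10.6 per degree of freedom). Libraries of different genotype were not compared in this way. The 3 counts taken as the floor of detection were 0.0787 to 0.398 CPM per library, and this floor covers counting error only. Gene models and chromosomes came from a RefSeq table of GRCz12tu, which is not the build of the counts, so no coordinates are given. Ensembl identifiers came from a separate list of gene names. A few genes that the rule takes are not reported here, in the text or the figures, and stay in the counts.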

Additional observations from a re-analysis of the deposited data

How the results depend on the processing

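In every alternative 0 members had an adjusted p-value under 0.05. For single genes, the order of the libraries and the overlap of the groups were read with TMM scaling only. Members lower in *il26-/-* GF at an unadjusted p-value under 0.05 numbered 1 in edgeR, where 2.27% of all genes were lower. They numbered 0 with upper quartile scaling (1.88% of all genes) and 0 with scaling by total counts only (0.976%). With the replicate number as a block they numbered 0, where 3.34% of all genes were lower. With limma-voom and quality weights they numbered 25, where 3.61% of all genes were lower. This method gave the least weight to the third library of each genotype (0.675 and 0.563). Leaving out each library gave 0 to 6, where 1.64% to 4.34% of all genes were lower. The median log2 fold change of the members was -0.060 with scaling by total counts only, where the median of all genes moved to 0.084, and -0.20 to -0.11 with each library left out. All-gene calls at the adjusted threshold numbered 1 in edgeR, 15 with the replicate block, 54 in DESeq2, 4 with upper quartile scaling, 4 with the looser filter, 2 with total counts only, 2 after thinning and 0 to 3 with each library left out. Higher and lower genes at the unadjusted threshold were 338 and 251, against 442 and 108 with total counts only and 377 and 208 with upper quartile scaling. *rpl7l1* reversed to -0.015 after thinning to the smallest library, and *rps8b* ranged between -0.074 and 0.24 with each library left out, on few counts.

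The replicate numbers were not taken as pairs, since the authors name no such block. Deviations from the group means correlated at 0.18, 0.096 and 0.30 between same-numbered libraries. As a hint from the data, *il26-/-* GF replicates 1 and 3 correlated best with their own number, and replicate 2 with WT GF replicate 1 (0.17). With the replicate block the median log2 fold change of the members was -0.15. Only 3 libraries per genotype limit the precision. A shift of all members by the observed size was not detectable gene by gene.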
